A study of Rattus norvegicus with 256 samples.

Results

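The bone marrow of untreated rats was compared with 30 other organs. Bone marrow took the 9 arrays whose titles name it, 3.52% of all arrays in the series, 5 from rats labelled male (1 to 5) and 4 from rats labelled female (2 to 5). Each other organ had between 3 and 10 arrays, with both sexes pooled per organ here, and spleen and thymus had 8 each. All animals, marrow and other organs alike, were Han Wistar-derived rats (AlpkHsdBrlHan:WIST), housed 2 or 3 to a cage and killed by inhalation of halothane, with each organ taken out and cleaned within 5 min of death and frozen afterwards. The labels name no treatment and no genetic change, and they give no age. Every array held RNA of 1 organ of 1 rat, but the organs were taken from the same small set of rats. Arrays of different organs are therefore not all from separate animals. The main fit took each array as a replicate and left the shared animals out, so its p-values measure the spread between arrays. How the marrow was taken out of the bone is not given in the sources used here.

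Bone marrow is the site where blood cells are formed in the adult. Stem and progenitor cells give rise to granulocytes, which fill their granules with antimicrobial proteins while still in the marrow, to red cell precursors that make haemoglobin, to megakaryocytes that shed platelets, and to B cell precursors. T cells mature in the thymus instead. The spleen of the rat also forms some blood cells in the adult, next to its stores of lymphocytes and its red cell clearing macrophages. Bone cells, reticular stroma, sinus endothelium and fat cells make up the frame of the marrow.

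Values are log2 expression values per probeset, so that a difference of 1 is 2-fold, and levels of different probesets are not compared with each other. Mpo (myeloperoxidase) and Elane (neutrophil elastase), which usually mark the granulocyte precursors of marrow, had no probeset with 1 gene symbol and were not checked here. The tissue label was checked with other marrow genes, which are described in the paragraphs on granules, red cells and platelets. Of 361 genes in 22 lists, 287 were measured by a probeset with 1 symbol. The 9 marrow arrays correlated with each other at 0.978 to 0.990 over all probesets, and all 9 correlated best with the spleen mean among the other organs. Across probesets the marrow mean correlated at 0.917 with spleen, 0.898 with mandibular lymph node, 0.891 with thymus and 0.671 with brain, the lowest of the 30 organs. Marrow means exceeded the expression threshold of the study's methods for 9004 probesets (29.0%), which placed marrow at rank 25 of 31 organs, whose other counts ran from 7879 to 10147.

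Checks of single arrays bear on what follows. Xist, transcribed from the inactive X chromosome of females, and Eif2s3y, a Y-linked gene, did not separate the labelled sexes. Xist, as the mean of 4 probesets, lay between 2.57 and 2.92 in the arrays labelled male 1 to 4 and between 7.55 and 7.80 in those labelled female 3 to 5. It stood at 6.82 in the array labelled female 2 and at 7.10 in the array labelled male 5. Xist thus went against the label of male 5 but not against that of female 2. Eif2s3y lay between 10.46 and 10.80 in male 1 to 4, and stood at 6.04 in male 5 and at 8.43 in female 2, against 4.10 to 5.82 in female 3 to 5. Medians of the other somatic organs were 2.44 for Xist and 10.09 for Eif2s3y in 110 male arrays, and 9.11 and 2.86 in 115 female arrays. Counts were therefore also made without the arrays labelled male 5 and female 2. The arrays labelled male 1, 3 and 4 in addition carried transcripts of adrenal steroid synthesis, given with the differences between arrays, and counts were also made without these 3. In such whole-organ RNA, fewer cells of a type and less RNA per cell cannot be told apart.

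Bone marrow differed from the mean of the other organs in both directions. With limma and Benjamini-Hochberg adjustment over 31042 probesets, 2742 probesets (8.83%) were higher in marrow than the mean of the 30 organ means, and 2221 (7.15%) were lower, by an adjusted p under 0.05, a difference over 1 and the expression threshold. Against every single organ, 232 probesets (0.747%) were highest in marrow and 28 (0.0902%) were lowest, again by more than 1 and with the largest of the 30 one-sided p-values adjusted. The 232 probesets held 189 with 1 symbol, from 176 genes, and for 176 of the 232 no array of any other organ reached the lowest marrow array. Over all 31042 probesets, 243 (0.783%) had every marrow array above every other array. The 232 were picked for high values in these same arrays, so their lack of overlap follows in part from that choice. Without the arrays labelled male 5 and female 2, the counts were 2760 higher, 2199 lower, 226 highest and 27 lowest. Without those labelled male 1, 3 and 4, they were 2727, 2268, 227 and 34.

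The distance to the next organ was short for most of the 232 probesets and very long for a few. The median difference from the highest other organ was 1.65, and 17 probesets exceeded 4. Spleen was the next highest organ for 88 of the 232, thymus for 48 and testes for 8, and no other organ for more than 7. Klra4, a receptor of the natural killer lectin family, ran from 8.56 to 9.61 in marrow, and no other array exceeded 4.13. The defensins Defa7 and Defa5 had marrow means of 9.99 and 14.62, against 3.87 in pancreas and 10.37 in thymus, and Lypd8l1 had 12.28 against 7.08 in spleen.

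**Figure D1:**
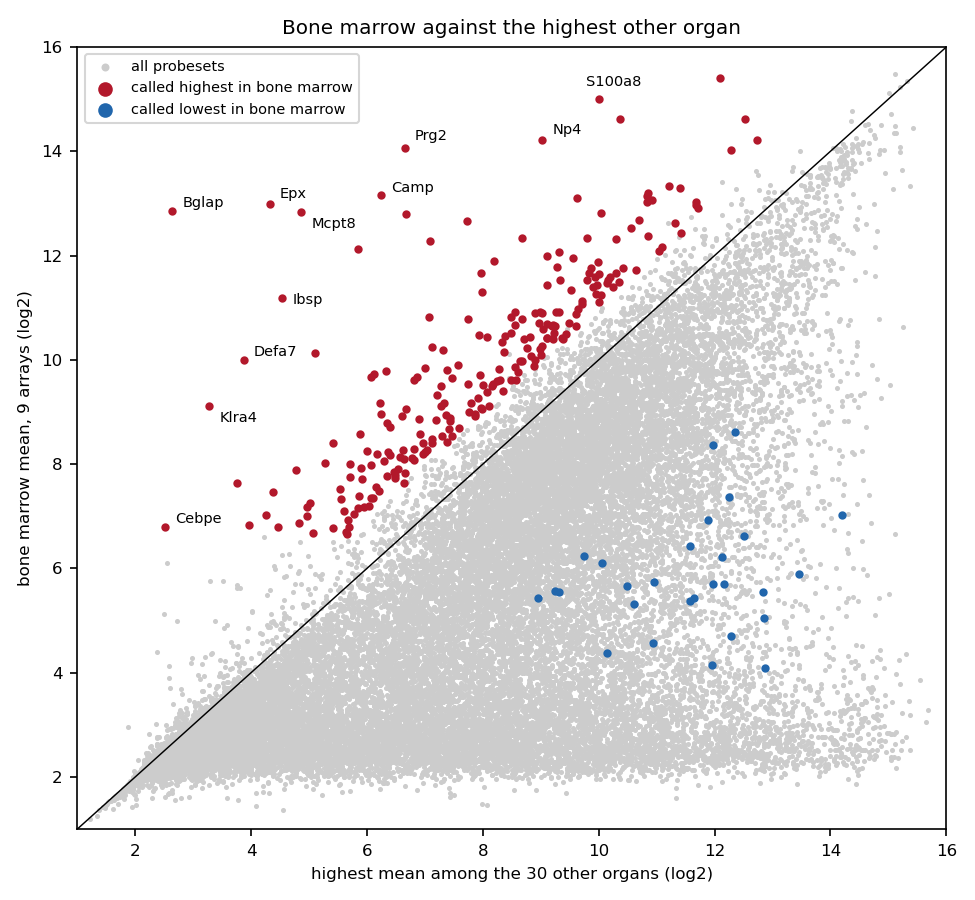
Mean log2 expression of each probeset in bone marrow (9 arrays, vertical axis) against the highest mean among the 30 other organs (horizontal axis). Grey points are all 31042 probesets, red points the 232 called highest and blue points the 28 called lowest in bone marrow, and the line marks equal values. Bglap stands farthest above the line, 10.24 over the adrenal mean.

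Bone cell genes gave the longest distance. Bglap, which encodes osteocalcin of the osteoblast, ranged from 12.14 to 14.10 in the 9 marrow arrays with a median of 12.78. The next organ, adrenal, had a mean of 2.63 ± 1.23 (SD, n = 10), and its highest array, labelled female 2, reached 6.11. All other organs thus lay near the floor of the measurement. The difference from adrenal was 10.24 ± 0.13 (SE from the spread pooled over all organs, adjusted p = 8.41e-136 by limma). Ibsp, bone sialoprotein of mineralising matrix, ran from 10.27 to 12.40 in marrow with a median of 11.12, against a thymus mean of 4.54, and no other array exceeded 5.98. Of the 12 measured genes of the bone list, 8 were higher than the mean of the other organs and 2 were highest, with a median difference of 2.65 beside 0.005 over all probesets. Both chains of type I collagen were high without being highest, Col1a1 at 14.03 ± 0.42 (SD, n = 9) and Col1a2 at 13.96 ± 0.40, against 14.86 and 14.64 in skin. The osteoclast enzymes Ctsk and Acp5 had marrow means of 9.50 and 10.11, with epididymis at 10.34 and spleen at 11.92. Calcr, the calcitonin receptor of osteoclasts, was near the floor at 2.39.

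Eosinophil and basophil granule genes formed the next group. Epx, eosinophil peroxidase, ran from 12.61 to 13.33 in the marrow arrays with a median of 12.99. Spleen was next at 4.32 ± 1.49 (SD, n = 8), and the highest spleen array reached 6.5, so the ranges were far apart (difference 8.67 ± 0.16, adjusted p = 1.43e-117). Prg2, the major basic protein of eosinophils, ran from 13.91 to 14.27 and exceeded spleen by 7.41, and the highest other array was a spleen array at 9.18. Mcpt8, a granule protease of basophils, ran from 12.38 to 13.31 with a median of 12.93, against 4.86 ± 1.44 in spleen. Mcpt9 and Mcpt10, proteases of the same family, had marrow means of 11.31 and 11.90, against 7.98 and 8.20 in caecum. Family members are similar in sequence, so probesets may share signal between them. Of the 15 measured genes of the mast cell, basophil and eosinophil list, 10 were higher than the mean of the organs and 6 were highest, with a median difference of 3.44. Ccr3, the eotaxin receptor of eosinophils, stood at 2.23 in marrow and 9.24 in spleen, and Il5ra, the receptor chain for interleukin 5, was near the floor in every organ (highest mean 2.05).

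Most measured neutrophil granule genes were high in marrow. Camp, the cathelicidin of specific granules, had a median of 13.15, a highest value of 13.33 and an SD of 0.13 over the 9 arrays, against 6.24 ± 1.17 (SD, n = 8) in thymus, the next organ. The highest array elsewhere was the adrenal array labelled female 2, at 8.31, and the difference from thymus was 6.92 ± 0.23 (adjusted p = 2.48e-78). Pglyrp1, which binds bacterial peptidoglycan, had a marrow mean of 12.13 ± 0.14, and Mmp8, the neutrophil collagenase, ran from 9.22 to 10.94. The adrenal mean of Pglyrp1 was 5.85 and the thymus mean of Mmp8 was 5.11. Np4, a neutrophil defensin, ran from 14.11 to 14.32 against 9.02 in thymus, while RatNP-3b, another defensin, stood at 14.62 against 12.52 in jejunum, whose Paneth cells make related defensins. Fcnb, a lectin of granulocytes, had a mean of 12.67 against 7.72 in spleen and 7.64 in uterus. Of 13 measured genes of secondary and tertiary granules, 12 were higher and 8 highest, with a median difference of 7.55, the longest of the 22 lists. Slpi, a protease inhibitor, was the thirteenth, at 9.21 in marrow and 13.72 in spleen. Hp, which binds haemoglobin, and Lcn2, which binds bacterial siderophores, were high in marrow (11.75 and 12.75) but higher in liver (13.75) and epididymis (12.98).

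Of 4 measured genes of the first, primary granules, 3 were higher and 2 highest. Srgn, the proteoglycan that packs granule contents, ran from 14.16 to 14.27 against 12.73 ± 0.16 in mandibular lymph node (difference 1.48, adjusted p = 1.62e-07). Gusb, a lysosomal glucuronidase, exceeded the same organ by 1.03. Lysozyme (Lyz2) had a mean of 14.31, below lung at 14.75. Among 16 measured genes of the neutrophil cytosol and surface, 10 were higher, 1 lower and 5 highest. S100a8 and S100a9, the 2 chains of calprotectin, ran from 14.73 to 15.17 and from 15.27 to 15.52, and exceeded thymus, the next organ, by 5.01 and 3.31. Csf3r, the receptor for the granulocyte growth factor, ran from 8.34 to 9.69 against 6.23 in spleen. Itgam, an integrin of myeloid cells, was highest by its mean of 8.40, but its lowest marrow array, at 5.78, lay below the highest adipose array at 7.11. C5ar1, the receptor of complement C5a, had a mean of 9.33 and exceeded lung, the next organ, by 2.12 (adjusted p = 4.33e-12). Il1r2, a decoy receptor of interleukin 1, stood at 8.58, against 10.12 in skin. The chemokine receptor Cxcr2 ran from 2.45 to 6.46, below the threshold of expression in the methods, and its mean exceeded that of adipose by 1.32 (adjusted p = 5.29e-12), and Cxcr1 had a mean of 2.30. Cd14, the lipopolysaccharide receptor, was lower than the mean of the organs by 1.11 (marrow 5.90 ± 0.93). The NADPH oxidase list was high in spleen as well: 4 of 5 measured genes exceeded the mean of the organs, none was highest, and the list median lay at 10.06 to 11.11 in marrow arrays and 10.33 to 11.93 in spleen arrays.

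**Figure D2:**
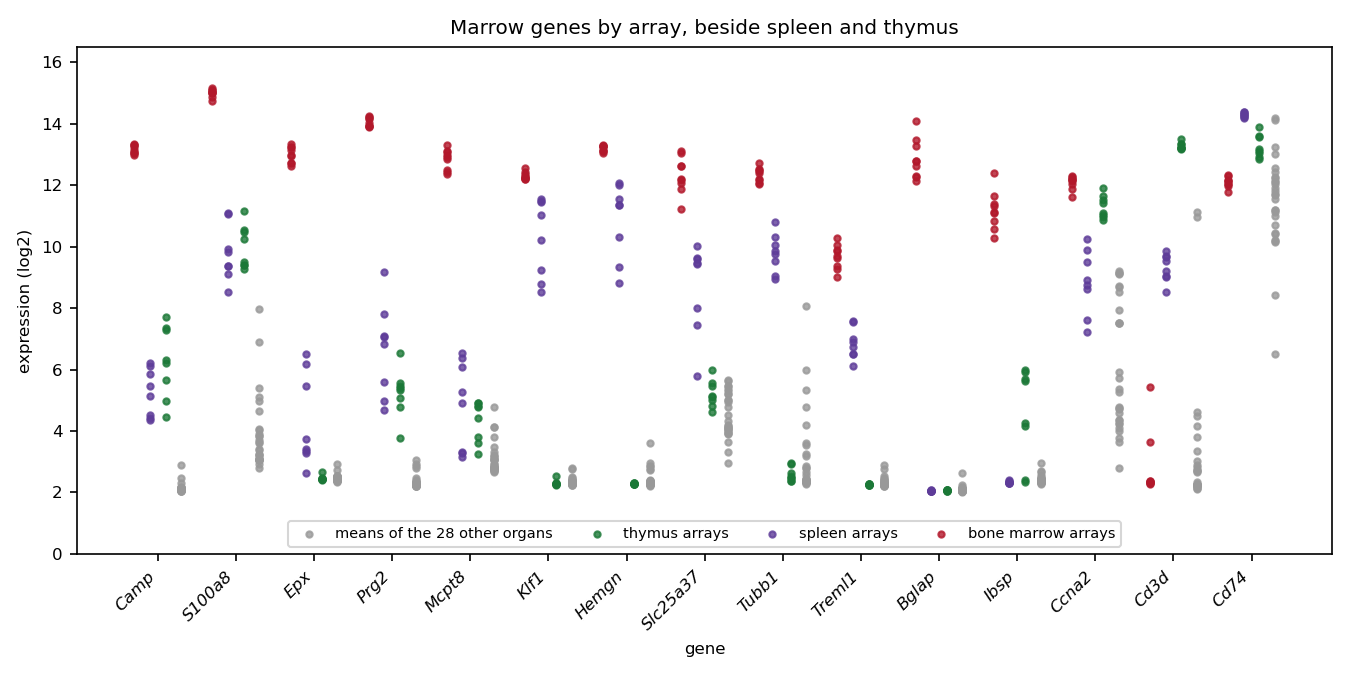
Log2 expression (vertical axis) of marrow genes (horizontal axis). Red points are the 9 bone marrow arrays, violet points the 8 spleen arrays, green points the 8 thymus arrays and grey points the means of the 28 other organs. Spleen arrays come nearest to marrow for the red cell and platelet genes, whereas Bglap, Epx and Camp stand apart in marrow.

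Red cell genes were high together, with spleen as the next organ for most of them. Of 23 measured red cell genes, 21 were higher than the mean of the organs and 12 were highest, with a median difference of 5.27. Klf1, the erythroid transcription factor, ran from 12.20 to 12.56 in marrow with a median of 12.26, against 10.29 ± 1.28 (SD, n = 8) in spleen, and the highest spleen array reached 11.56. No organ after spleen exceeded 2.81 (adrenal), so spleen and marrow shared this gene with no other organ near them (difference from spleen 2.02 ± 0.17, adjusted p = 3.14e-22). Hemgn, a nuclear protein of erythroid cells, ran from 13.06 to 13.31 against 10.85 ± 1.23 in spleen. Epor, the erythropoietin receptor, ran from 9.23 to 9.85 against 6.81, and Slc4a1, the anion exchanger band 3, from 12.84 to 13.58 against 11.41. Hbb stood at 15.12 in marrow and 15.01 in spleen, and Ahsp, the chaperone of alpha globin, at 13.41 and 12.13, a difference of 1.28 with an adjusted p of 0.00482 in the direct comparison with spleen and of 0.0722 in the test against every organ. Marrow arrays spread less than spleen arrays for Klf1 and Hemgn, with SDs of 0.12 and 1.28 for Klf1 and 0.09 and 1.23 for Hemgn.

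Of 15 measured genes of haem synthesis and iron uptake, 14 were higher and 6 highest. Slc25a37, mitoferrin of the inner mitochondrial membrane, ran from 11.22 to 13.13 in marrow, against 8.67 ± 1.47 in spleen (difference 3.65, adjusted p = 3.91e-26). Cpox and Urod, enzymes of the late and middle steps of haem synthesis, had means of 13.15 and 12.37, against 10.84 in spleen and 10.85 in bladder. Uros, which closes the ring of the haem precursor, exceeded testes by 2.73. Alas2, the rate-limiting erythroid enzyme, did not separate marrow from spleen: it ran from 13.07 to 13.35 in marrow with a median of 13.23, and stood at 13.16 ± 0.34 in spleen (difference 0.05 ± 0.38 SE). Fech, which inserts the iron, exceeded spleen by 0.80, under the threshold of 1. Slc11a2, the iron importer, was the member not called, at 7.95 in marrow and 11.37 in duodenum.

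Megakaryocyte and platelet genes were higher in 13 of 14 measured members, and 9 were highest, all with spleen as the next organ. Pf4, platelet factor 4, ran from 13.77 to 14.21 with a median of 14.02, against 12.28 ± 0.50 (SD, n = 8) in spleen. Tubb1, the tubulin of the platelet rim, ran from 12.05 to 12.73 against 9.79 in spleen, and Treml1, a receptor of platelet granules, from 9.0 to 10.27 against 6.86. No spleen array reached the lowest marrow array for these 3 genes: the highest spleen arrays stood at 12.83, 10.81 and 7.59. Of the glycoprotein complex that binds von Willebrand factor, Gp9 exceeded spleen by 2.44 and Gp5 by 2.73. The integrin chains Itga2b and Itgb3 exceeded it by 1.80 and 2.18. Vwf itself was highest in lung (10.97, marrow 8.50).

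Transcription factors of blood formation were higher in 18 of 22 measured members, and 7 were highest. Gata1, needed by the red cell and megakaryocyte lines, ran from 9.37 to 10.16 with a median of 9.63, against 6.12 ± 1.02 in spleen and 3.43 in testes (difference from spleen 3.62 ± 0.10, adjusted p = 2.83e-90). Cebpe, which acts late in granulocyte maturation, ran from 5.67 to 7.37, and no array of another organ exceeded 2.91. Tal1, Nfe2, Lyl1, Gfi1b and Klf1 were the other members called highest, each with spleen next and differences from 1.58 to 2.76. Myb, a factor of immature cells, stood at 11.19 in marrow, 10.93 in thymus and 5.56 in spleen. Hoxa9 and Meis1, factors of stem cells and of several solid organs, were not called, with means of 4.24 and 7.53. Cebpb, a factor of macrophages and fat cells, had a marrow mean of 7.81 and a difference from aorta of -4.20. Of 10 measured receptors of progenitors, 7 were higher and Epor and Csf3r were highest. Kit, the stem cell factor receptor, was near the floor on its probeset (2.70, lung 5.49), and Flt3 stood at 3.82.

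Promoters of 5 genes called highest are printed, 1 for each of the bone, eosinophil, neutrophil, red cell and platelet groups, chosen after the values were known, so that the sequence around each start can be read beside its pattern. They are RefSeq sequences of build GRCr8, 300 bases each, written from 5′ to 3′ along the gene, all on the minus strand, ending 50 bases after the start. Capitals mark matches, on either strand, to AGATAA for GATA factors, CCACACCC for KLF factors, TTGCNNAA for C/EBP factors, GGAAGT for PU.1 or ACCACA for RUNX factors.
Bglap, chr2:176137269-176137568: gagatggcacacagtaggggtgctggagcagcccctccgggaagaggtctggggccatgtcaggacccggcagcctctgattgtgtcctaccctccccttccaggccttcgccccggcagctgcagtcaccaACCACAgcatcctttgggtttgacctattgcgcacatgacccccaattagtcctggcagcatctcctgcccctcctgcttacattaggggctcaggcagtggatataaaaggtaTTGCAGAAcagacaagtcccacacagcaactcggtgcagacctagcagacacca
Epx, chr10:73175131-73175430: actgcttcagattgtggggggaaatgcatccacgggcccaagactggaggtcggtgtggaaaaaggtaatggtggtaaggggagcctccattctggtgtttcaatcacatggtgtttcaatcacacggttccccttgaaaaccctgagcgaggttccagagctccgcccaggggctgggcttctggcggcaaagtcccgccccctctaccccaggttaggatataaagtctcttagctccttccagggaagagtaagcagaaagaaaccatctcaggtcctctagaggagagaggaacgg
Camp, chr8:118721949-118722248: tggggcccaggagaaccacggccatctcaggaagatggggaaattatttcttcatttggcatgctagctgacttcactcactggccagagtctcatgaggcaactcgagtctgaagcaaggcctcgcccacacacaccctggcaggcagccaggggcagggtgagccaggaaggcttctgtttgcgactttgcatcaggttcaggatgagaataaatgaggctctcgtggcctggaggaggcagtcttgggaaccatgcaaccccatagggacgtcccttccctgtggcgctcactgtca
Epor, chr8:28770273-28770572: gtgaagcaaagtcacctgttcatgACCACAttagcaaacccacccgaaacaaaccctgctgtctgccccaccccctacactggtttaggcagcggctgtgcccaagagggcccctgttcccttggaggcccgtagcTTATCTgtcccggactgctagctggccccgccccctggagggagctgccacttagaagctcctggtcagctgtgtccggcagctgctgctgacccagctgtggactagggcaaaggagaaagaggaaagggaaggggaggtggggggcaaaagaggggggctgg
Treml1, chr9:20139884-20140183: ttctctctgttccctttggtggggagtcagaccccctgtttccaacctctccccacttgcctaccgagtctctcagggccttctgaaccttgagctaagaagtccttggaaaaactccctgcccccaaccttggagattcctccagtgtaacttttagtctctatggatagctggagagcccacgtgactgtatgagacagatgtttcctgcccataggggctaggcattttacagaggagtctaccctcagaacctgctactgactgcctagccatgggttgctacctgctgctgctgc
The Bglap window held a C/EBP match whose first base lay at -4 from the start and a RUNX match at -118. That of Epor held a GATA match at -114 and a RUNX match at -226. Those of Epx, Camp and Treml1 held none of these letters. Of 176 genes called highest, 146 had a promoter in the table. A GATA match was present in 14.4% of them and in 11.3% of all 27457 promoters, KLF in 6.2% and 3.2%, C/EBP in 8.9% and 10.5%, PU.1 in 24.7% and 22.8%, and RUNX in 21.9% and 16.9%. These shares were not tested.

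Genes of cell division were high in marrow and thymus alike. All 33 measured genes exceeded the mean of the organs, with a median difference of 4.5, and 1 of them, Tk1, was highest. Tk1, thymidine kinase of the S phase, ran from 10.49 to 11.20 with a mean of 10.91, against 8.98 in spleen and 8.90 in thymus (difference from spleen 1.93, adjusted p = 1.09e-10). Mki67, a marker of cycling cells, had a marrow mean of 12.51 ± 0.16, a thymus mean of 11.82 and a spleen mean of 10.16. Pcna, the sliding clamp of replication, stood at 13.07, 13.04 and 11.97. The median of the list lay between 10.41 and 10.76 in the marrow arrays, between 9.97 and 10.42 in the thymus arrays and between 7.23 and 8.91 in the spleen arrays.

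Beside the myeloid and erythroid genes, lymphoid genes took different positions. All 8 measured genes of the B cell precursor list were higher than the mean of the organs, and Vpreb3, a protein of the B cell precursor, was highest. For Sox4 the sign turned on its other probesets, with differences of -0.39 and -0.11. Vpreb3 ran from 7.22 to 8.42 with a median of 7.81, against 5.71 ± 1.02 in mesenteric lymph node, whose highest array reached 7.21. Genes that mature B cells share were higher in spleen: Ms4a1 (CD20) stood at 9.18 in marrow and 12.39 in spleen, and Cd79b at 8.97 and 11.98. Ebf1, a factor of early B cells, stood at 7.85, against 8.70 in adipose and 6.89 in spleen. Of 13 measured T cell genes, 3 were higher than the mean of the organs, none was highest, and the list median was 3.26 to 5.42 in marrow arrays against 12.08 to 12.69 in thymus arrays. Cd3g, a chain of the T cell receptor complex, had a marrow mean of 7.72 against 14.03 in thymus, and Cd4 stood at 2.88 against 10.50.

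**Figure D3:**
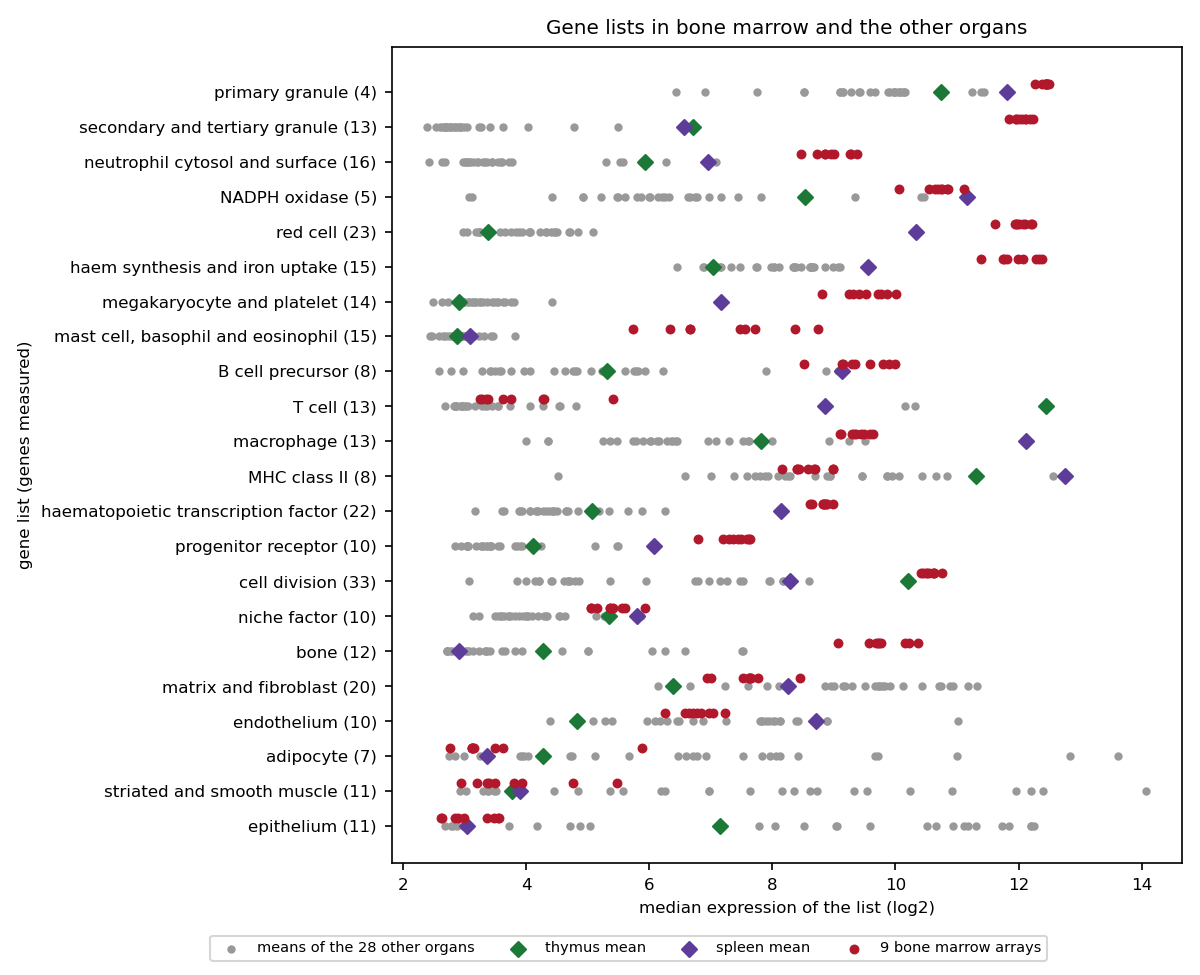
Median log2 expression of the measured genes of each list (horizontal axis) for 22 gene lists (vertical axis, with the number of genes measured). Red points are the 9 bone marrow arrays, diamonds the spleen and thymus means, grey points the means of the 28 other organs. All 9 marrow arrays lie above every other organ's mean for the granule, red cell, haem, megakaryocyte, mast cell and bone lists, and below spleen for the macrophage and MHC class II lists.

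Macrophage genes were higher than the mean of the organs in 12 of 13 measured members, and none was highest. Spleen was the highest other organ for all 13. Cd163, which takes up haemoglobin, stood at 9.13 in marrow and 10.24 in spleen, Hmox1, which breaks down haem, at 9.53 and 12.38, and Spic, a factor of red pulp macrophages, at 7.64 and 11.52. MHC class II genes, which present peptides to T cells, were not raised in marrow: none of 8 was higher than the mean of the organs, 2 were lower, and Cd74 stood at 12.10 in marrow against 14.29 in spleen. Ciita, the switch of the class II genes, was at 4.38 against 9.61. RT1-Bb, 1 of the 2 members called lower, ran from 3.59 to 9.32 over the marrow arrays, and its other probeset went the other way, at 1.85 above the mean of the organs. Without the arrays labelled male 5 and female 2, 1 class II gene was lower, and RT1-Bb, at a difference of -2.32, was not (adjusted p = 0.06074).

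Of 10 measured niche factors, 3 were higher than the mean of the organs and 1 was highest, with a median difference of 0.24. Lepr, the leptin receptor that marks reticular stroma, ran from 6.62 to 8.17 with a median of 7.37, and was highest over mesenteric lymph node (5.86 ± 1.13) by 1.53, although a mandibular lymph node array reached 7.44. Cxcl12, the chemokine that holds stem cells, was measured by probesets that disagreed: the brighter over all organs gave 11.77 in marrow and 13.02 in spleen, and another gave 12.97 in marrow and 11.68 in liver, the next organ, and was called highest. Vcam1, an adhesion molecule of stroma and macrophages, stood at 11.45 against 13.37 in spleen. Kitlg, Angpt1 and Il7, factors for progenitors, were not called, with means of 8.31, 3.57 and 3.51. Of 20 matrix and fibroblast genes, 3 were higher (Thy1, Lum and Fn1) and 11 lower, with a median difference of -1.91. Col4a1 and Col4a2, chains of the type IV collagen of basement membranes, were lower, with differences of -2.80 and -2.45. Of 10 endothelial genes none was higher and 3 were lower, the longest being Cldn5, a tight junction protein of vessels, at 5.77 ± 0.91 against 12.95 in lung. Stab2, a scavenger receptor of sinus endothelium, was at 6.26 in marrow, 10.32 in spleen and 2.20 in thymus. Of 7 adipocyte genes, Cfd was higher (10.68) and Lpl lower (9.09), and Lep, Plin1, Adipoq and Cidec lay between 2.36 and 3.29 in marrow.

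The 28 probesets lowest in marrow named 22 genes, and in 15 of the 28 no other array fell to the marrow range. Over all 31042 probesets, 54 had every marrow array below every other array. The 28 were picked for low values in these same arrays, so their lack of overlap follows in part from that choice. Quantile normalization called 16 lowest, and 14 of these were among the 28. Errfi1, a feedback inhibitor of the EGF receptor, ran from 2.60 to 4.94 in marrow with a median of 4.14, while spleen, the next lowest organ, stood at 6.89 ± 0.62 (SD, n = 8) and liver at 12.87 (difference from spleen -2.80, adjusted p = 6.64e-12). Klf9, a transcription factor that answers to glucocorticoid and thyroid hormone, had a marrow mean of 6.43 against 8.49 in testes, and its other probeset differed from the mean of the organs by 0.039. Tead1, a factor at the end of the Hippo pathway, ran from 3.79 to 5.74 against 6.68 in thymus. Lats2, a kinase of that pathway, was also among the 22, at 5.71 against 6.72 in pituitary, a gene chosen after its values were seen. Mgp, which keeps soft tissue from calcifying, ran from 5.92 to 7.93 against 8.78 in brain and 14.20 in lung. Jun, a chain of AP-1, stood at 5.54 ± 0.37 against 7.10 ± 0.16 in thymus. Tacc2, Bnip3, which acts in mitophagy, and Nfat5, which answers to osmotic stress, had marrow means of 4.14, 5.04 and 5.54, and differences from the next organ of -2.60, -1.73 and -1.57.

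Against the mean of the organs, the genes farthest below included genes of connective tissue, vessels, smooth muscle and epithelium. Dpt, a protein of connective tissue matrix, differed by -7.75, Cav1, the coat of caveolae, by -7.00, Myh11, the smooth muscle myosin, by -6.39, and Krt8, a keratin of simple epithelium, by -5.98. Cmbl, Aldh1a1, which makes retinoic acid, Hspb1, a small heat shock protein, and Col4a5, a basement membrane collagen, differed by -6.89, -6.33, -6.20 and -6.12. Of 11 epithelial genes, 7 were lower and 1, Cdh1 at 9.23, was higher than the mean of the organs, with a median difference of -3.93. Cdh1 encodes E-cadherin, which joins cells, and its spleen mean was 11.09. Of 11 muscle genes, 6 were lower and none was higher.

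Direct comparison with spleen gave 1690 probesets higher in marrow (5.44%) and 2555 lower (8.23%), and quantile normalization turned this split into 2073 and 2066. Higher in marrow were 32 of 33 cell division genes, 17 of 23 red cell genes, 13 of 14 megakaryocyte genes, 12 of 15 genes of haem and iron and 10 of 13 of secondary and tertiary granules. Lower in marrow were all 8 MHC class II genes, 11 of 13 macrophage genes and 11 of 13 T cell genes. Bglap, Ibsp, Epx, Mcpt10 and Mcpt8 led upward, with differences of 10.80, 8.85, 8.67, 8.23 and 7.98. Coch, an extracellular protein, led downward, at 2.64 in marrow against 13.07 ± 0.29 in spleen. Ccl21 and Cxcl13, chemokines that place T and B cells in lymphoid tissue, stood at 2.74 and 3.6 in marrow against 12.73 and 11.37 in spleen. Clec4m, a lectin, stood at 2.41 against 11.59, and Dpt at 2.99 against 11.82. The median difference over all probesets was 0.116, and 0.023 after quantile normalization.

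Against thymus, 1744 probesets were higher (5.62%) and 3150 lower (10.1%), and quantile normalization gave 2142 and 2176. All 13 T cell genes were lower, 21 of 23 red cell genes were higher, and of 33 cell division genes 1 was higher and 1 lower. The longest differences upward were those of Slc4a1 (11.12), Ahsp (11.02), Hemgn (10.91), Bglap (10.79) and Epx (10.53). Downward, Cd3d, Cd3e, Cd8a and Cd8b, chains of the T cell receptor complex and its coreceptor, differed by -10.45, -10.43, -10.34 and -9.63, and Tbata, named for thymus, brain and testes, by -9.59. Cd3e and Cd8a were each measured by a second probeset, which gave marrow means of 5.91 and 4.25 where the first gave 2.26 and 2.95. Of the class II genes 6 of 8 were lower than in thymus, and of the macrophage genes 7 of 13 were higher.

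Among the genes that varied most between the 9 marrow arrays were genes of the adrenal, muscle, pancreas, fat and bone. The median SD over the 9 arrays was 0.24 for probesets above the expression threshold, and 39 of these probesets had an SD over 1. The genes of this paragraph were chosen after their values were seen. Hsd3b1, an enzyme of steroid synthesis that peaked in ovary at 14.71, stood at 9.69 in male 1, 6.83 in male 3 and 6.78 in male 4, and between 2.28 and 2.97 in the other 6 arrays. Cyp21a1, the 21-hydroxylase of the adrenal cortex, followed the same arrays at 7.48, 5.37 and 5.95, with the others between 2.25 and 2.34. Akr1b7, which peaked in adrenal at 14.92, stood at 9.20, 6.26 and 5.33 there. Star, which brings cholesterol into mitochondria, stood at 8.02, 2.58 and 5.57 in the same 3 arrays, with the others at or below 2.23. Cyp11a1, which cleaves the cholesterol side chain, stood at 7.17, 2.54 and 3.40, with the others at or below 2.24. In turn, the adrenal array labelled female 2 was the highest array outside marrow for Bglap, Mcpt8, Camp, Np4 and S100a8. The part of these transcripts in the other results was not tested beyond the counts without the 3 arrays.

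Muscle, pancreas and fat genes, also chosen after their values were seen, marked other arrays. Acta1, skeletal muscle actin, stood at 9.55 in female 2 and 8.12 in female 5, and between 2.81 and 6.06 elsewhere. Myl1, a myosin light chain, stood at 8.32 and 7.46 in the same arrays. Ctrb1, the pancreatic chymotrypsinogen, reached 7.32 in male 2, 6.36 in female 5, 5.96 in female 4, 5.75 in male 5 and 4.74 in male 4. Female 4 held the highest values of Adipoq (5.89, others 2.34 to 2.59) and Cidec (4.34), of the fat cell, and of Cd3d (5.42), of the T cell. Phex and Dmp1, proteins of the osteocyte embedded in bone, ran from 2.79 to 7.53 and from 2.52 to 7.34, with male 1 highest for both, and Bglap was highest in male 1 as well (14.10).

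**Figure D4:**
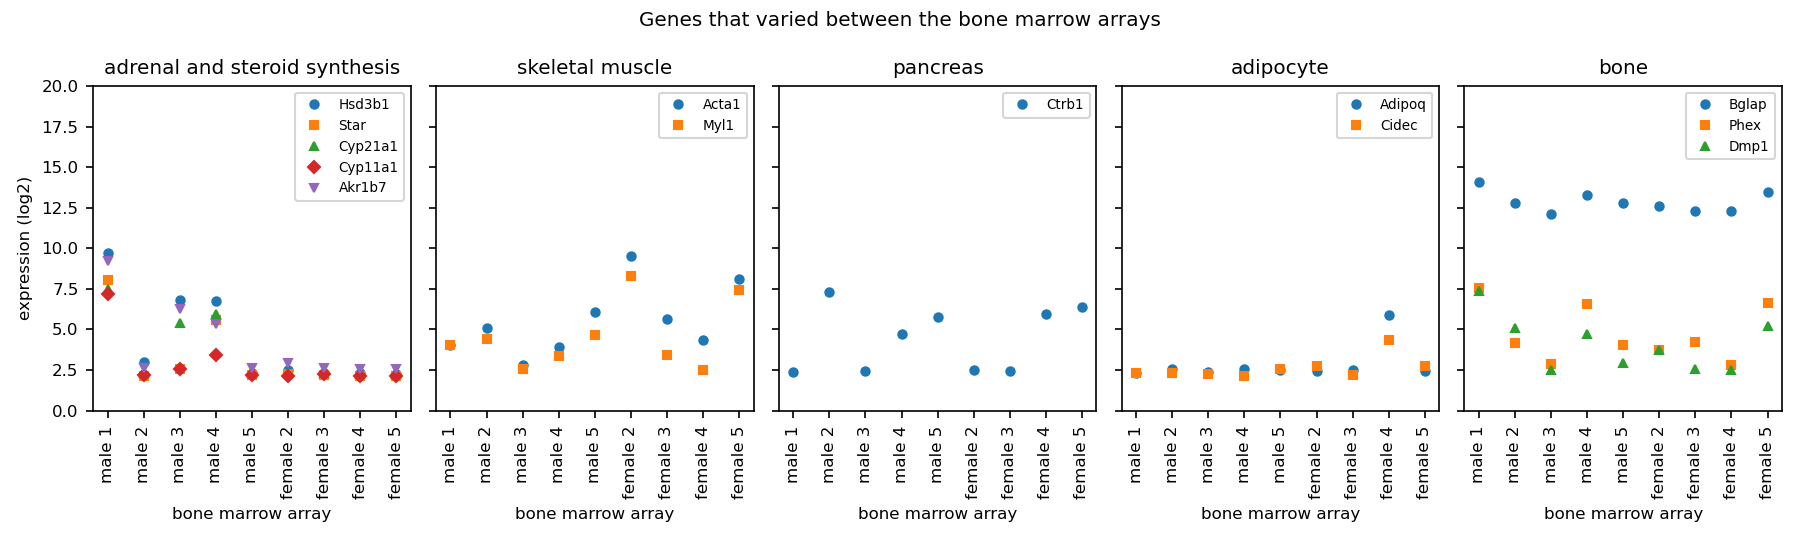
Log2 expression (vertical axes, 1 scale) in each of the 9 bone marrow arrays (horizontal axes) for genes of adrenal and steroid synthesis, skeletal muscle, pancreas, fat cells and bone. Each symbol is 1 array's value for 1 gene, and genes were chosen after their values were seen. Hsd3b1, Cyp21a1 and Akr1b7 were raised in male 1, 3 and 4, the muscle genes in female 2 and female 5, and the fat cell genes in female 4.

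Sex, the question of the study, gave no call in marrow with the arrays as labelled. With 5 male and 4 female arrays, limma called 0 sexually dimorphic (SDE) probesets (0%) by the criteria of the methods, with 1471 at an unadjusted p under 0.05 and a lowest adjusted p of 0.2036. The methods' t-test also called 0, with 1224 at an unadjusted p under 0.05. Without the arrays labelled male 5 and female 2, limma called 4, Eif2s3y higher in males, and 2 probesets of Xist and 1 without a symbol higher in females. Without the array labelled male 5 alone it called 3, the same but for Eif2s3y. These arrays were left out for their values of Xist and Eif2s3y, so the calls of these genes are a description. A single limma fit over all groups of organ and sex, which takes its spread from all organs, called 17, 13 of them higher in females, among them Tpsab1, Mcpt1l1, Cpa3, Hdc and Fcer1a.

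Some mast cell genes were thus among the calls of the wider fit. Tpsab1, a tryptase of mast cells, stood between 2.72 and 2.77 in the 5 male arrays and at 5.04, 8.75, 8.29 and 6.39 in female 2 to 5. The sexes did not overlap, and the difference of male minus female was -4.37, with an adjusted p of 0.4819 in the fit of 9 arrays and 9.416e-19 in the fit over all groups. Mcpt1l1, a chymase-like protease, ran from 5.47 to 7.02 in male arrays and from 8.44 to 11.11 in female arrays. Cpa3, the carboxypeptidase of mast cell granules, ran from 5.49 to 6.44 and from 6.85 to 9.31. Hdc, which makes histamine, ran from 4.74 to 7.47 and from 7.56 to 8.37. Tpsb2, Fcer1a, the binding chain of the IgE receptor, and the chymase Cma1 did not overlap between the labelled sexes either, with differences of -1.85, -1.16 and -1.14 and adjusted p-values of 0.0001257, 0.04648 and 0.3628 in the wider fit. These 7 genes were chosen after their values were seen. How many of all probesets separate the labelled sexes in this way is not given here, so the lack of overlap is a description. The array labelled male 5, whose Xist value lay near those of the female arrays, stood with the male arrays for Tpsab1 (2.77), Mcpt1l1 (6.0) and Cpa3 (5.96). For Hdc (7.47) and Tpsb2 (5.16) it was the highest male array, next to the lowest female values of 7.56 and 5.26. For Fcer1a (6.38) and Cma1 (9.13) it lay just under the highest male array. Ms4a2, the beta chain of the IgE receptor, and Mcpt1, another chymase, differed by -0.42 and -0.41, with an adjusted p of 1 each in the wider fit. Genes of eosinophils and basophils, Epx, Prg2 and Mcpt8, differed by -0.26, -0.12 and -0.08, with an adjusted p of 1 each in the wider fit. In male arrays alone 7 members of the list were higher than the mean of the organs and 6 highest, and in female arrays alone 12 and 8. All probesets together gave 2741 higher in male arrays alone and 2771 in female arrays alone. Highest calls over all probesets were 199 in male arrays alone and likewise more in female arrays alone. The organs differed as well: ovary and uterus had no male arrays, and testes, prostate and epididymis had no female arrays. Whether the list differed from all probesets in these counts was not tested.

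**Figure D5:**
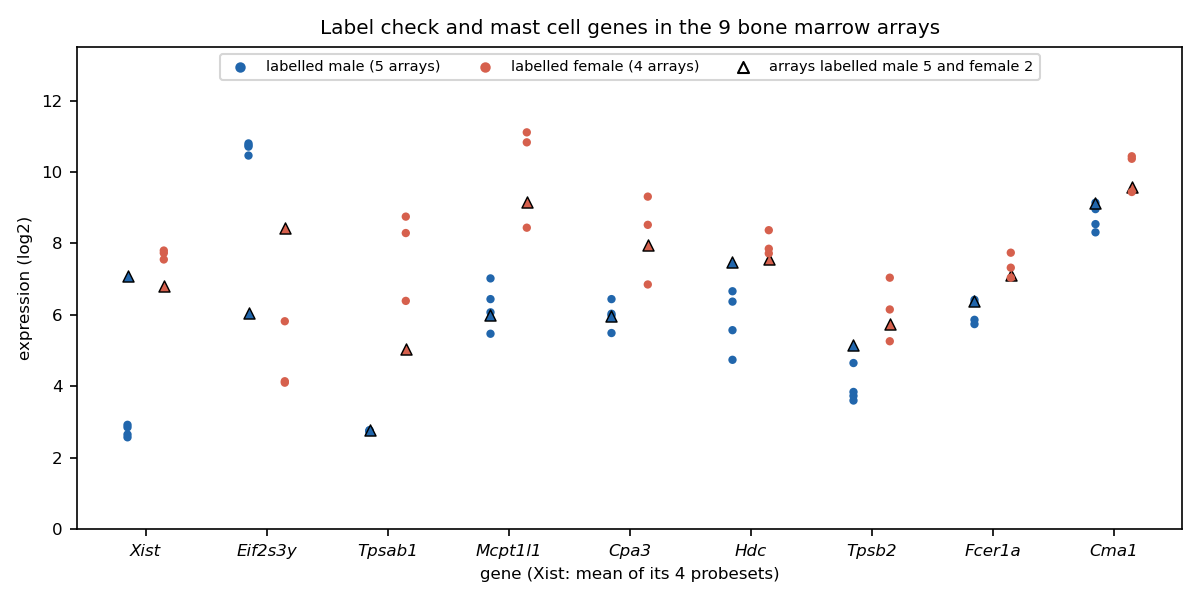
Log2 expression (vertical axis) of Xist (mean of 4 probesets), Eif2s3y and 7 mast cell genes (horizontal axis) in the 9 bone marrow arrays. Blue points are the 5 arrays labelled male, orange points the 4 labelled female, and triangles with a black edge the arrays labelled male 5 and female 2. Eif2s3y places these 2 arrays between the other arrays of the labelled sexes. Xist places both near the other arrays labelled female, against the label of male 5 alone. Each of the 7 mast cell genes, chosen after their values were seen, is higher in the 4 arrays labelled female.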

How the data were processed

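RNA of 31 organs of untreated rats was hybridised by the authors to 256 RAE230_2 arrays, 1 organ of 1 rat per array. Arrays that failed quality control were removed by them, and the rest were summarised with GCRMA. The deposited values are log2 expression values of 31042 probesets and were used as they stand. Neither the version of GCRMA nor the set of arrays normalized together is given in the sources used here. GCRMA sets dim probesets near a common floor, so differences between low values are understated. Array medians ran from 3.86 to 4.45, and the number of arrays limits the precision.

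One limma fit (version 3.58.1, R 4.3.3) over the 31 organs gave bone marrow minus the mean of 30 organ means, minus each organ, minus spleen and minus thymus. For "highest" and "lowest" the largest of the 30 one-sided p-values was taken. This fit took arrays as independent, although the organs shared rats. Benjamini-Hochberg adjustment covered all probesets. A call needed an adjusted p under 0.05, a difference over 1 and a mean above 6.65, the methods' threshold, in the higher group. Sexes were compared in the 9 marrow arrays by the same criteria. The t-test of the methods was an alternative. The fits were tested on simulated data.

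Symbols came from the platform annotation: 20826 probesets had 1 symbol, 436 several and 9780 none, and 20758 matched a current RefSeq gene. Each list gene took its probeset with the highest mean over organs. Named were the 15 genes farthest above the next organ, the 8 farthest below it, the 8 farthest from the mean of the organs each way, the 5 farthest from spleen and from thymus each way, Xist and Eif2s3y, and in each list the 3 highest in marrow, the largest called and the lowest difference. Other genes were named after their values were seen. Members, lists and tests were chosen with earlier results of these data known.

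Alternatives changed the arrays, the sex, the spread, the normalization, the thresholds, the other organs and the probeset. Leaving out male 1, 3 and 4, and splitting the mast cell list by sex, were added after seeing the data. Over the same replicate number, deviations of marrow and of the other organs correlated at -0.086 to 0.091. Of the 9 arrays, 1, male 3, correlated best with its own number. The highest correlation with any number was 0.115, so this check could not settle whether the numbers pair the organs of an animal. Python 3.11.15, pandas 2.3.3 and matplotlib 3.10.9 were used for tables and figures.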

Additional observations from a re-analysis of the deposited data

Results flagged for a closer look

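Single arrays stood far from the other 8 in 17 of 148 genes or probesets looked at. About 1 in 20 groups does so by chance. The 17 cannot be set against that rate, since some of the 148 were chosen after their values in these arrays were seen. Female 4 was the array in 6 of them: Adipoq at 5.89 (others 2.34 to 2.59), Cidec 4.34 (2.15 to 2.77), Fabp4 10.66 (8.89 to 9.76) and Cfd 11.14 (10.47 to 10.79) of the fat cell, and Cd3d 5.42 (2.29 to 3.65) and Cd3e 3.10 (2.07 to 2.40) of the T cell. Male 1 was the array in 4: Cyp11a1 at 7.17 (2.14 to 3.40), Myh11 6.69 (2.58 to 4.26), Cldn5 7.80 (4.61 to 6.16) and Cks1b 8.45 (8.81 to 9.17). Male 5 was low for Reln at 2.59 (6.40 to 8.45), a secreted matrix protein, and for Cd24 at 10.37 (11.27 to 11.98). Male 2 stood apart for Nfat5 at 3.45 (5.25 to 6.62) and Krt8 at 2.37 (2.09 to 2.21), male 4 for Zap70 at 2.83 (3.20 to 3.51), female 3 for Aldh1a1 at 2.55 (2.33 to 2.44) and female 5 for Cav1 at 2.26 (2.01 to 2.07). Values near 2 lie at the floor of the measurement, where small steps make an array stand apart.

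The difference of marrow from the other somatic organs itself differed between the labelled sexes for 258 of 31042 probesets by limma with Benjamini-Hochberg adjustment. Without the arrays labelled male 5 and female 2 it did so for 251. By contrast, the limma test of sex in the marrow arrays alone gave 0 probesets at an adjusted p under 0.05. Values here are the male difference minus the female one. The mast cell genes that passed were higher in females: Tpsab1 -4.43 (adjusted p = 6.95e-18), Mcpt1l1 -3.69 (5.16e-12), Cpa3 -2.35 (0.00306), Tpsb2 -1.81 (0.000263), Hdc -1.70 (2.42e-06) and Fcer1a -1.37 (0.0138). All 6 kept an adjusted p under 0.05 without the 2 arrays, from 1.81e-20 for Tpsab1 to 0.0240 for Fcer1a. These p-values take their spread from all somatic organs. In the limma fit of the marrow arrays alone without the 2 arrays, none of the 6 passed, and the lowest adjusted p was 0.2493 (Tpsab1). Of the other mast cell genes, Cma1 gave -1.13 (0.43), Ms4a2 -0.46 (0.843) and -0.23 (1.0) on its 2 probesets, and Mcpt1 -0.68, Mcpt10 -0.41 and Mcpt9 -0.29 (1.0 each). Of the genes of steroid synthesis, these were higher in males: Hsd3b1 3.39 (0.00129), Akr1b7 3.14 (0.00333) and Cyp21a1 2.37 (0.0149), and the values lay high in male 1, 3 and 4 alone. Dmp1 gave 1.04 (0.0324). Errfi1 gave -1.38 (0.0204), and -1.36 (0.0883) without the 2 arrays. Cebpe gave -0.37 (0.0202), and -0.18 (1.0) without them. Xist gave 2.87, 2.57 and 2.41 on 3 probesets and Eif2s3y -2.55, where the marrow sexes were closer than those of the other organs. Without the 2 arrays Eif2s3y gave -0.69 (adjusted p = 1.0) and Xist 2.01 (0.0204), 1.65 (0.138) and 1.59 (0.0427).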

How the results depend on the processing

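With a difference over 2 the counts were 1369 higher, 952 lower, 87 highest and 6 lowest, 660 higher and 1143 lower than spleen, and 961 and 1155 for thymus. With no expression threshold, 4796 were lower, 121 lowest, 2969 higher and 4301 lower than spleen, and 3283 and 5143 for thymus. Without spleen, thymus and both lymph nodes, 628 were highest and 71 lowest. Lowest calls fell to 16 after quantile normalization, 14 of them shared, and rose to 48 in females alone, 17 of them shared. SDE calls were 4 without the arrays labelled male 5 and female 2, 17 in the fit over all groups, and 0 to 3 when each array was left out, 3 without male 5. Leaving out any 1 marrow array left the counts of the organ comparisons within 1.5 times. With the animal as a replicate block, the counts were 2737 higher, 2218 lower, 232 highest and 30 lowest, and no call of 125 named genes changed, although the numbers did not pair the samples. Differences from the mean of the organs turned their sign in females alone for Fabp4 (-0.041), Ccr3 (0.013), Timp3 (-0.033) and Kitlg (0.038), in males alone for Fabp4 (-0.22) and after quantile normalization for Calcr (-0.012). On another probeset they turned for Kdr (0.11), Cd8a (0.33), Cd3e (0.39), Klf9 (0.039), RT1-Bb (1.85), Ctsc (0.069), Timp3 (-1.34 and -0.49), Sptb (0.044 and 0.099), Sox4 (-0.39 and -0.11) and Kitlg (1.10). The cause was not tested. Signal near the floor limits low genes.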

Other observations

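RT1-Bb, a class II gene of the RT1 complex, was among the genes with the largest SD between marrow arrays. It stood at 8.49, 3.59, 8.60, 9.32 and 5.04 in male 1 to 5 and at 8.73, 4.38, 8.97 and 4.16 in female 2 to 5. RT1-CE10, a class I gene, ran from 4.48 to 10.56. In lung, the arrays with the numbers of the 5 that were high in marrow had RT1-Bb between 11.97 and 12.75. Of the numbers that were low in marrow, male 2 stood at 12.62, female 3 at 11.32 and male 5 at 10.77 in lung, and female 5 at 3.32. Members of the RT1 family are similar in sequence, so probesets may share signal between them. Of the 40 genes with the largest SD between marrow arrays, the highest other organ was adrenal for 6, gastrocnemius muscle for 4 and liver for 4. The shares over all probesets are not given here. The 6 include RT1-CE10 and Reln, which were not raised in male 1, 3 and 4 alone. Uhrf1, which keeps DNA methylation through replication and was also among the 40, ran from 3.39 to 8.50.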
